A study of Mus musculus with 2 samples.

Results

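Blood-rich spots are the places on a heart section where haemoglobin transcripts took the largest share of the captured RNA. They were chosen by rank in each section: among spots with at least 500 UMIs (unique molecular identifiers, each counting 1 captured RNA molecule), the 50 spots with the largest share of Npr3, Cytl1, Plvap, Vwf, Pcp4, Cntn2 and Smoc1, genes of endocardial, endothelial and conduction cells, were set aside first. Of the remaining spots, the 50 with the largest share of Hba-a1, Hba-a2, Hbb-bs, Hbb-bt and Alas2 were taken. This gave 100 blood-rich spots of 1662 kept spots (1671 in all), which were set against 1462 other spots, while 100 spots had been set aside.

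The data are 2 Visium libraries, in which RNA from a tissue section is captured on barcoded spots that each cover several cells. The PD1 KO section came from a heart of a C57BL/6 mouse homozygous for the PD1 mutation and the PD1 Het section from a heterozygous C57BL/6 mouse, so the control also carries a mutant copy. Both animals had the left anterior descending artery tied at postnatal day 2, and the hearts were frozen 7 days later and cut into 10 µm sections 200 µm below the suture. There was 1 section of each genotype and no uninfarcted heart, so no test was possible, values describe these 2 libraries, and all intervals cover counting error only.

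Red blood cells of mammals lose their nucleus and stop transcription before they enter the circulation as reticulocytes, which keep a store of messenger RNA for globin and for the last steps of maturation. Adult haemoglobin joins alpha chains, here from Hba-a1 and Hba-a2, with beta chains, here from Hbb-bs and Hbb-bt, and each chain binds a haem. Alas2 is the erythroid form of the first enzyme of haem synthesis. In the heart, haemoglobin RNA marks blood held in the cavities and vessels or outside them, and spot positions, which could separate these, were not used here.

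The PD1 KO section had 851 kept spots with 23520499 UMIs and the PD1 Het section 811 kept spots with 12814494 UMIs, and values are therefore compared first within a section. The sections also differed in sex-linked transcripts, with 1 Xist UMI and 2900 UMIs of 4 Y-linked genes in the PD1 KO section, against 541 Xist UMIs and 1 Y-linked UMI in the PD1 Het section. Genotype, depth, sex-linked expression and section cannot be told apart. Pdcd1, the targeted gene, had 0 UMIs in the blood-rich spots of both sections, which allows up to 2.09 CPM (UMIs of a gene per 1000000 UMIs) in PD1 KO and 3.36 CPM in PD1 Het and says nothing about the labels. Cd274, the ligand gene of PD-1, had 2 UMIs in PD1 KO and 0 in PD1 Het blood-rich spots. The 2 sections shared 225 spot barcodes, but 0 of them were blood-rich in both.

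The 250 bases upstream of the annotated start are shown for 4 of the genes that chose the spots, because they separate the alpha, beta and haem synthesis genes in blood (RefSeq, GRCm38.p6; each is written on the gene's own strand). Capitals mark matches on either strand. The motifs searched were the core bound by GATA factors, spelled AGATAA or else as TGATAA, the CACCC box, the CCAAT box and the TATA box, spelled TATAA. The sequences are Hba-a1 at chr11:32283422-32283671 (plus strand), Hbb-bs at chr7:103827929-103828178 (minus strand), Hbb-bt at chr7:103813924-103814173 (minus strand) and Alas2 at chrX:150547167-150547416 (plus strand).
Hba-a1: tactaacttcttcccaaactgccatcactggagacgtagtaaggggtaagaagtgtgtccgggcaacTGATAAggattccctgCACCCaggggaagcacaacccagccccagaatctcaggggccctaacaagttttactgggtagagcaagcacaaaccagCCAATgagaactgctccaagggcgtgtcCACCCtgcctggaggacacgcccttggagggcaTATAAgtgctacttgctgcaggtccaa
Hbb-bs: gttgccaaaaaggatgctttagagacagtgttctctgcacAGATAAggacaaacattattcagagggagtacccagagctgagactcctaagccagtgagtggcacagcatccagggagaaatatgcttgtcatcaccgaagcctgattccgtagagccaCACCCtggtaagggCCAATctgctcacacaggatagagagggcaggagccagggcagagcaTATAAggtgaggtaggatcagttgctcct
Hbb-bt: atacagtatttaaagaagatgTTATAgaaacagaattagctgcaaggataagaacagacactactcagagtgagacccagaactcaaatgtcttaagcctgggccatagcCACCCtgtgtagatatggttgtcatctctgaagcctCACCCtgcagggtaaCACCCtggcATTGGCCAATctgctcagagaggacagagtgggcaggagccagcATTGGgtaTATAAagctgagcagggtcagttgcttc
Alas2: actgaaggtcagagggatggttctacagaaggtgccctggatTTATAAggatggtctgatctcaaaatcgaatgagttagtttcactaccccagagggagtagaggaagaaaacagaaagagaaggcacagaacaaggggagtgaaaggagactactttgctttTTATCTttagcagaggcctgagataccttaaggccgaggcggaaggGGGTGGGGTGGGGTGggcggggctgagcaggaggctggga

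The Hba-a2 window, at chr11:32296242-32296491, matched that of Hba-a1 at 247 of 247 overlapping bases once moved by 3 bases, so it is not printed. The Hbb-bs and Hbb-bt windows were equal at 185 of 239 compared positions (77.4%). Hba-a1, Hba-a2 and Hbb-bs held all 4 kinds of motif, which 0.721% of 32851 RefSeq promoter windows of this length do. Singly, the GATA kind was found in 16.6% of those windows, CACCC in 52%, CCAAT in 33.8% and TATAA in 22.8%. Hbb-bt had no match to the GATA letters and Alas2 none to CCAAT. Of 8 further red cell genes looked up, 4 had a window (Tent5c, Ube2l6, Bpgm and Mkrn1), and none of the 4 held the GATA letters. These are letter matches in 1 window and say nothing about binding.

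The haemoglobin share was uneven among the blood-rich spots. In PD1 KO blood-rich spots it ran from 1.83% to 15.1% with a median of 2.29%, against a median of 0.398% in the other PD1 KO spots. In PD1 Het blood-rich spots it ran from 1.80% to 25.6% with a median of 2.66%, against a median of 0.245% in the other PD1 Het spots. These shares chose the spots and are a description. A share above 5% was reached by 6 blood-rich spots in PD1 KO, at 15.1, 12.9, 11, 10.6, 6.97 and 5.63%, and by 4 in PD1 Het, at 25.6, 7.34, 6.50 and 5.55%. The rank had no step at its limit: the 50th and 51st spots lay at 1.832% and 1.831% in PD1 KO, and at 1.80% and 1.76% in PD1 Het. Some of the spots set aside first were as rich, since 7 of 50 in PD1 KO and 12 of 50 in PD1 Het had a larger share than the 50th blood-rich spot.

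**Figure D1:**
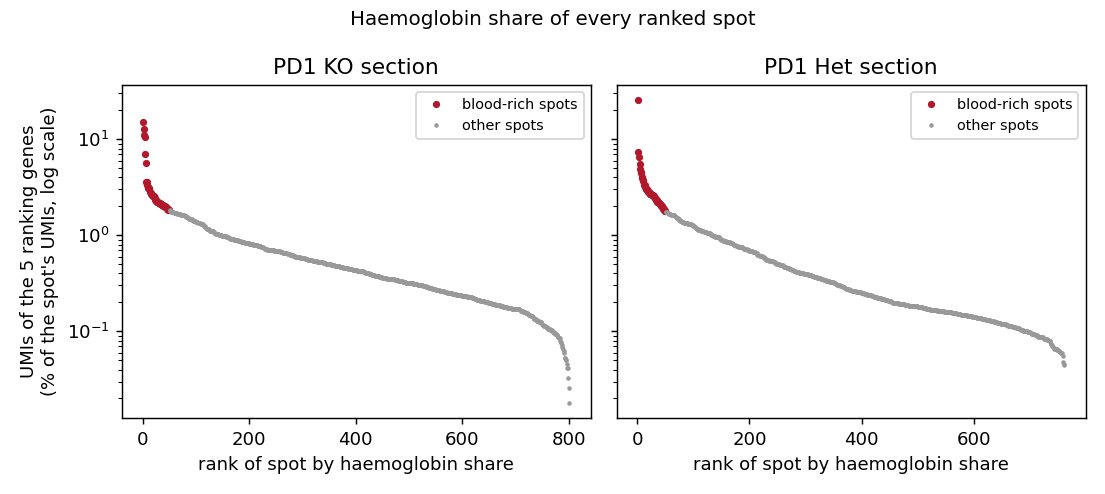
Share of each spot's UMIs from Hba-a1, Hba-a2, Hbb-bs, Hbb-bt and Alas2 (y axis, percent, log scale) against the spot's rank (x axis), with the PD1 KO section left and the PD1 Het section right. Red points are the 50 blood-rich spots and grey points the other spots. A few spots stand above 5%, and the curve passes the limit near 1.8% without a step.

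Blood-rich spots made up 5.88% of the kept PD1 KO spots and held 28.8% of the UMIs of the 5 genes, against 6.17% of the spots and 31.8% of those UMIs in PD1 Het. The spots set aside first held a further 9.29% in PD1 KO and 21.1% in PD1 Het. The median depth of blood-rich spots was 29621.5 UMIs in PD1 KO, against 27214 UMIs in the other PD1 KO spots. In PD1 Het it was 17987.5 UMIs in blood-rich spots and 15384 UMIs in the other spots. Blood-rich spots were thus somewhat deeper in both sections, and the part of depth in the results was not tested, apart from the depth-matched values given for some lists. UMIs of the 13 mitochondrial genes also took a larger share in blood-rich than in other spots, 18.2% against 15.9% in PD1 KO and 27.8% against 26.1% in PD1 Het.

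All 5 ranking genes, whose levels chose the spots, are given with totals counted without these 5 genes. Hbb-bs, the more abundant beta globin (ENSMUSG00000052305), had 18766 CPM in PD1 KO blood-rich spots against 3023 CPM in the other PD1 KO spots, and 19976 CPM in PD1 Het blood-rich spots against 2570 CPM in the other PD1 Het spots. Hba-a1 (ENSMUSG00000069919) had 8103 CPM against 1001 CPM in PD1 KO, and 7916 CPM against 836 CPM in PD1 Het. Hba-a2 (ENSMUSG00000069917) had 7397 CPM against 1136 CPM in PD1 KO, and 6098 CPM against 687 CPM in PD1 Het. Because these genes chose the spots, their levels in the blood-rich spots of the 2 genotypes are a description only. Hbb-bt (ENSMUSG00000073940) had 2496 CPM against 353 CPM in PD1 KO, and 2258 CPM against 254 CPM in PD1 Het. Alas2 (ENSMUSG00000025270), with 230 and 110 UMIs in PD1 KO and PD1 Het blood-rich spots, had 160 CPM against 21.2 CPM in PD1 KO and 123 CPM against 10.7 CPM in PD1 Het.

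The make-up of the globin transcripts along the haemoglobin ranking is given as a description, since the same 4 genes ranked the spots and set the bins. The other spots of each section were divided into 5 bins of like size by haemoglobin share. In the PD1 KO section Hba-a1 made up 38.7% (36.4 to 40.9) of the alpha globin UMIs in the lowest bin, then 43.4, 45.4, 46.8 and 48.6% in the following bins, and 52.3% (51.6 to 52.9) in the blood-rich spots. In the PD1 Het section the same share was 53.5% (49.6 to 57.3), 51.4, 54.5, 54.3 and 55.7% in the bins, and 56.5% (55.6 to 57.4) in the blood-rich spots. The share therefore climbed at every step in PD1 KO and over a narrower range, not at every step, in PD1 Het. Alpha globin as a share of all globin UMIs was 36.5% in the lowest bin and 42.2% in the blood-rich spots of PD1 KO, and 32.4% in the lowest bin and 38.7% in the blood-rich spots of PD1 Het.

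The split between the paired globin genes is uncertain, because their transcripts share sequence. In the last 400 bases, from which this assay reads, 91.6% of the 31-base words of Hba-a1 occur also in Hba-a2, and 57.0% of those of Hbb-bs also in Hbb-bt, so many reads cannot tell the copies apart. How reads matching both copies were counted is not given in the sources used here. Hbb-bt took 11.7% of the beta globin UMIs in PD1 KO blood-rich spots and 10.2% in PD1 Het blood-rich spots. Alas2 had 4.35 UMIs per 1000 globin UMIs (3.81 to 4.95) in PD1 KO and 3.40 (2.79 to 4.09) in PD1 Het blood-rich spots. All these genes chose the spots, so the values are a description, and the difference was not tested.

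**Figure D2:**
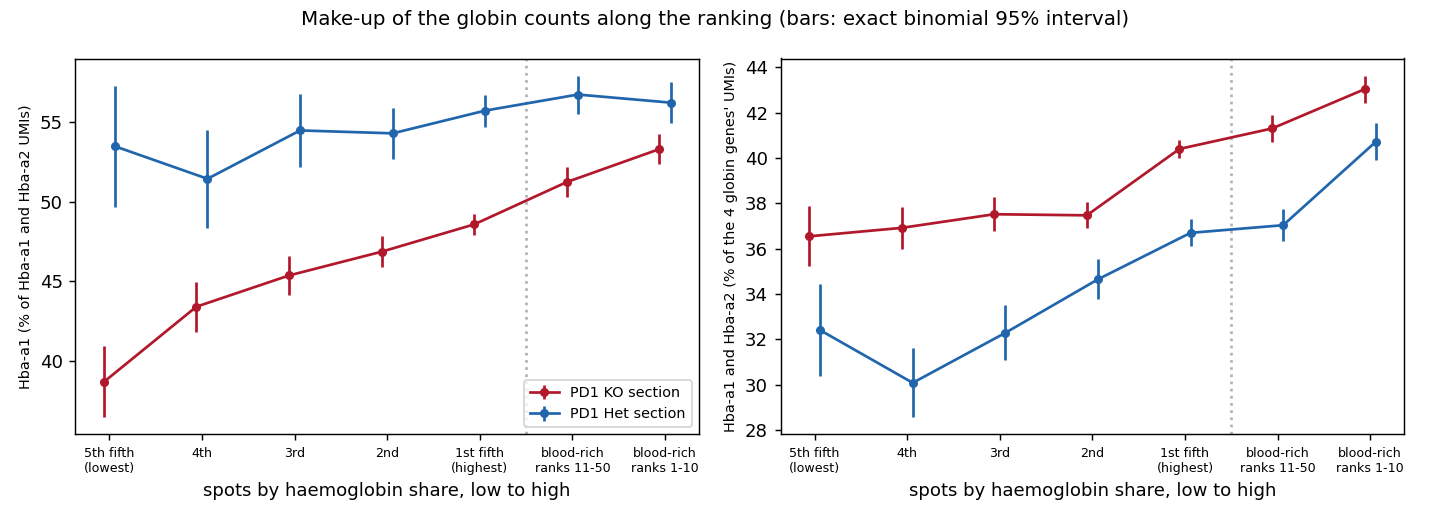
Left, Hba-a1 as a percentage of Hba-a1 and Hba-a2 UMIs; right, both alpha genes as a percentage of the UMIs of the 4 globin genes (y axes, which do not start at 0), for 5 bins of the other spots and for blood-rich spots (x axis, haemoglobin share low to high). Red is PD1 KO, blue is PD1 Het, and bars are exact binomial 95% intervals. The Hba-a1 share climbs from 38.7% to over 50% in PD1 KO and stays between 51.4% and 56.7% in PD1 Het.

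Transcripts of the reticulocyte stage accompanied haemoglobin in both sections, although they played no part in choosing the spots. The 6 lists of red cell genes hold 64 genes, of which 63 are in the files and 43 had at least 30 UMIs in all kept spots. Among these 43 genes, 9 were at least 1.5-fold higher in blood-rich than in other spots of both sections and 0 were at least 1.5-fold lower in both. Over all 13158 genes with that many UMIs, 1.58% were at least 1.5-fold higher in both sections and 3.75% at least 1.5-fold lower. Taken singly, 10 of the 43 were higher and 0 lower in PD1 KO, where 5.19% of all genes were higher and 12.6% lower, and 14 were higher and 3 lower in PD1 Het, where 11.4% of all genes were higher and 15.6% lower. The median log2 ratio of the 43 genes was 0.20 in PD1 KO and 0.12 in PD1 Het, against -0.07 and -0.03 for all genes, so the larger ratios belonged to a few members. In these bulk-like spots, fewer cells of a type and less RNA per cell cannot be told apart.

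Genes of reticulocyte maturation had some of the largest ratios. Tent5c, a poly(A) polymerase that stabilises messenger RNA, had 37 UMIs (25.7 CPM) in PD1 KO blood-rich spots against 4.74 CPM in the other spots, and 26 UMIs (29.1 CPM) in PD1 Het blood-rich spots against 3.79 CPM. Its log2 ratio of blood-rich over other spots was 2.44 (1.85 to 3.0) in PD1 KO and 2.94 (2.17 to 3.68) in PD1 Het. Ube2l6, a conjugating enzyme of ubiquitin-like proteins, had 51 and 26 UMIs and ratios of 2.12 (1.64 to 2.58) in PD1 KO and 1.63 (0.95 to 2.26) in PD1 Het. Mkrn1, a ubiquitin ligase, had 92 and 46 UMIs and ratios of 0.93 (0.60 to 1.24) and 1.32 (0.83 to 1.78). Bnip3l, the receptor that removes mitochondria from reticulocytes, lay at 0.22 (-0.05 to 0.47) and 0.42 (0.06 to 0.76), short of 1.5-fold. Summed over its 13 genes, the maturation list lay at 0.40 (0.28 to 0.52) in PD1 KO and 0.69 (0.52 to 0.86) in PD1 Het, and at 0.20 and 0.43 without the 10 first-ranked spots.

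Of the genes of membrane and skeleton, 3 were at least 1.5-fold higher in both sections. Slc4a1, the anion exchanger of the red cell membrane, had 15 UMIs in PD1 KO and 10 in PD1 Het blood-rich spots, at log2 ratios of 2.20 (1.25 to 3.06) and 3.37 (2.00 to 4.70). It had fewer than the 30 UMIs set for naming genes and, with Dmtn and Car2 below, was chosen after its values were seen. Dmtn, dematin of the membrane skeleton, lay at 1.34 (0.32 to 2.24) in PD1 KO and 0.93 (-1.05 to 2.46) in PD1 Het with 12 and 4 UMIs. Ank1, ankyrin, had a ratio near 0, at -0.16 (-0.37 to 0.03) and -0.23 (-0.52 to 0.04). The summed list lay at 0.12 (-0.02 to 0.25) in PD1 KO and 0.03 (-0.17 to 0.22) in PD1 Het.

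Among red cell enzymes, Bpgm, which makes the bisphosphoglycerate that lowers the oxygen affinity of haemoglobin (ENSMUSG00000038871), had 67 UMIs (46.6 CPM) in PD1 KO blood-rich spots against 22.1 CPM in the other spots. In PD1 Het it had 55 UMIs (61.6 CPM) in blood-rich spots against 16.4 CPM in the other spots. The log2 ratios were 1.08 (0.68 to 1.45) and 1.91 (1.44 to 2.35), and UMIs came from 34 blood-rich spots in PD1 KO and 26 in PD1 Het with at most 5 and 7 in 1 spot. Car2, a carbonic anhydrase, lay at 1.64 (0.87 to 2.35) in PD1 KO and 0.54 (-1.41 to 2.03) in PD1 Het, from 20 and 4 UMIs. Gpx1, a peroxidase of many cell types, lay at 0.25 (0.09 to 0.41) and 0.46 (0.26 to 0.66), while Cat, catalase, and Prdx2, peroxiredoxin, both abundant in red cells as proteins, lay between -0.11 and -0.02. The summed list lay at 0.08 in both sections (0.01 to 0.15 in PD1 KO and -0.01 to 0.18 in PD1 Het).

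Haem synthesis beyond Alas2 was little enriched. Slc25a37, mitoferrin, which brings iron into mitochondria, was the only one of 11 members at least 1.5-fold higher in both sections, at 0.88 (0.38 to 1.34) in PD1 KO and 0.60 (-0.25 to 1.35) in PD1 Het with 43 and 16 UMIs. Fech, ferrochelatase, the last enzyme of the pathway, lay at 0.22 (-0.02 to 0.45) and 0.06 (-0.31 to 0.40), and Alas1, the form of the first enzyme in other tissues, at 0.12 (-0.05 to 0.30) and -0.19 (-0.55 to 0.16). The summed list lay at 0.15 (0.05 to 0.25) in PD1 KO and -0.14 (-0.30 to 0.03) in PD1 Het. The 8 erythroid regulators, transcription factors and the erythropoietin receptor, summed to 89 UMIs in PD1 KO and 50 in PD1 Het blood-rich spots, at 0.19 (-0.14 to 0.50) and 0.35 (-0.10 to 0.78). Most of these UMIs came from Lmo2, with 36 and 26, and Zfpm1, with 36 and 17, partner proteins of GATA factors. Gata1, Klf1 and Gfi1b, named for their counts, had 0 UMIs in the blood-rich spots of both sections, and Nfe2 had 1 in PD1 KO and 0 in PD1 Het. Embryonic and theta globins had 2 UMIs together in PD1 KO and 0 in PD1 Het blood-rich spots.

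**Figure D3:**
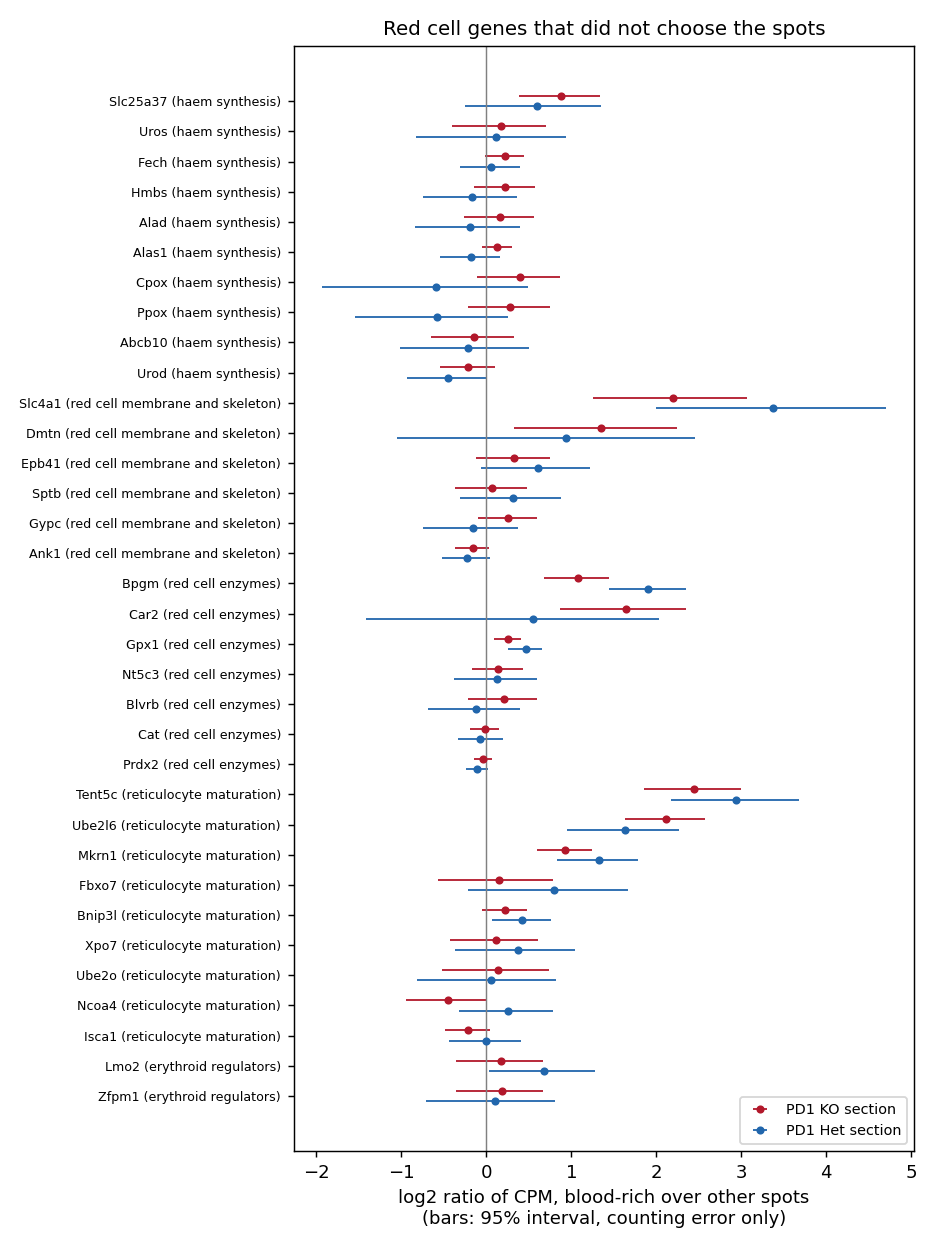
Log2 ratio of CPM in blood-rich over other spots (x axis) for most members of the red cell lists with at least 30 UMIs in the blood-rich spots of both sections together, and for Slc4a1, Dmtn and Car2, with the list in brackets. Red points are PD1 KO, blue points below them PD1 Het, and bars are 95% intervals of counting error. Tent5c, Ube2l6 and Slc4a1 lie above 1.5 in both sections, and most other members lie near 0.

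Some of these transcripts followed the haemoglobin share among the other spots too, while the correlations over whole lists were weak. As a description over spots of 1 library each, Spearman's rho of the maturation list's share with the haemoglobin share was 0.10 over 801 ranked spots in PD1 KO and 0.11 over 761 in PD1 Het, and for red cell enzymes it was 0.02 and 0.01. In PD1 KO, Tent5c had 2.75, 2.42, 4.87, 5.69 and 7.47 CPM from the lowest to the highest bin of the other spots, 15 CPM in the blood-rich spots ranked 11 to 50 and 65.5 CPM in the first 10. In PD1 Het it had 0.473, 1.38, 2.64, 5.75 and 8.43 CPM in the bins, then 22.6 and 53.6 CPM. Tent5c was thus higher at every step in PD1 Het, and in PD1 KO from the next-to-lowest bin on. Ube2l6 was flatter below the limit, with 9.35 CPM in the lowest and 7.69 CPM in the highest bin of PD1 KO, and 7.57 and 11.5 CPM in those of PD1 Het. Mkrn1 had 29.4 and 36.7 CPM in those bins of PD1 KO, and 18 and 25.3 CPM in those of PD1 Het. Bpgm had 33.5 CPM in ranks 11 to 50 and 95 CPM in the first 10 of PD1 KO, whereas in PD1 Het it had 60.8 CPM in ranks 11 to 50 and 64.3 CPM in the first 10. These steps rest on few UMIs, with 20 and 10 Tent5c UMIs in the first 10 spots of PD1 KO and PD1 Het.

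**Figure D4:**
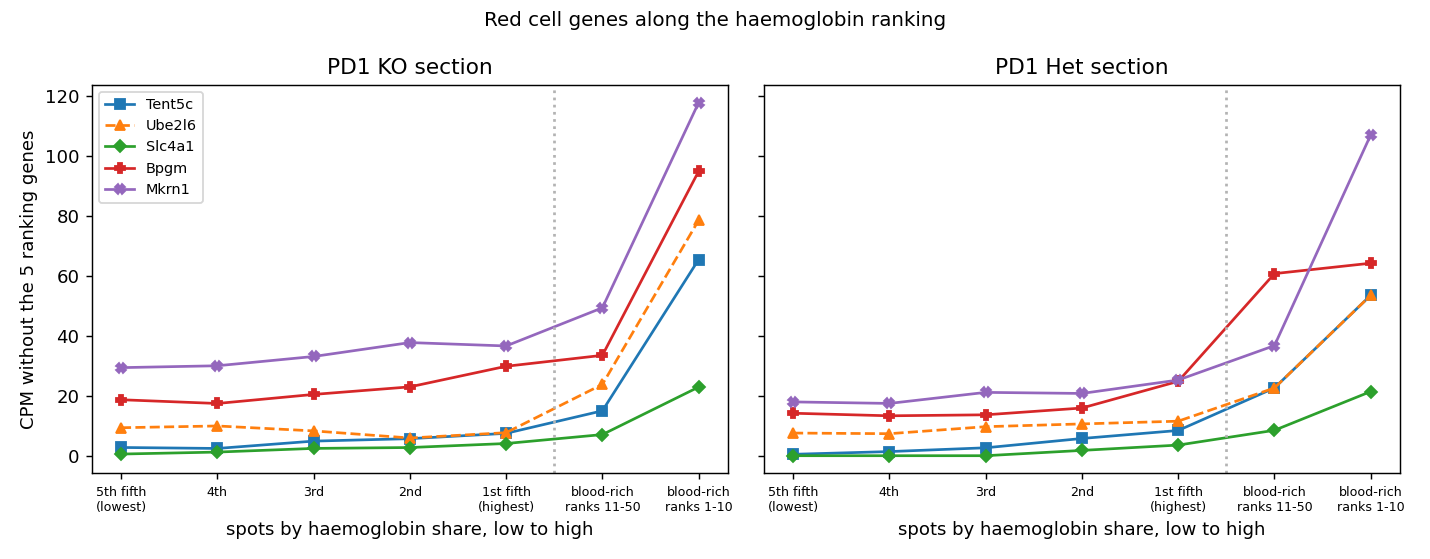
CPM of 5 red cell genes (y axis) in 5 bins of the other spots and in blood-rich spots ranked 11 to 50 and 1 to 10 (x axis, haemoglobin share low to high; the dotted line is the limit of the blood-rich spots), PD1 KO left and PD1 Het right. The curves are highest in the first 10 spots of both sections. In PD1 Het the Tent5c and Ube2l6 points coincide in the blood-rich spots.

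Markers of other circulating cells had low counts. Neutrophil markers were at 0 in the blood-rich spots for 10 of 14 genes in PD1 KO and 10 of 14 in PD1 Het, and their sum lay at a log2 ratio of -0.25 (-0.65 to 0.12) and -0.28 (-0.79 to 0.19). Of 15 platelet genes, 6 were at 0 in PD1 KO and 9 in PD1 Het, with the sum at 0.11 (-0.05 to 0.27) and -0.06 (-0.27 to 0.15). With 25 spots per section the platelet sum lay at 0.33 (0.13 to 0.53) in PD1 KO, and against depth-matched spots the neutrophil sum lay at 0.25 (-0.47 to 0.97) in PD1 Het. Monocyte genes lay at -0.30 (-0.61 to -0.01) in PD1 KO and 0.28 (-0.11 to 0.66) in PD1 Het. Most of the platelet sum came from Gng11, which endothelial cells also express, with 300 of 347 UMIs in PD1 KO and 155 of 203 in PD1 Het. Pf4, platelet factor 4, lay at -0.57 (-1.15 to -0.05) in PD1 KO and 0.01 (-0.51 to 0.48) in PD1 Het. The T cell list had 6 UMIs in PD1 KO and 2 in PD1 Het, and the list of NK and cytotoxic genes 2 and 0. B cell genes lay at 0.46 (-0.02 to 0.90) in PD1 KO and -0.23 (-0.92 to 0.40) in PD1 Het. The name of the spots rests on haemoglobin and reticulocyte genes alone.

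Over all 7289 genes with at least 500 UMIs, 22 (0.302%) were at least 1.5-fold higher in blood-rich than in other spots in PD1 KO and 232 (3.18%) in PD1 Het, and 5 (0.0686%) were higher in both. These were Bpgm, Mkrn1, Entpd1, Slc25a37 and Tagln, of which 3 are red cell genes. Entpd1, an ectonucleotidase that breaks down extracellular ATP and is found on endothelium and immune cells, lay at 0.74 (0.15 to 1.28) in PD1 KO with 31 UMIs and 1.1 (0.36 to 1.78) in PD1 Het with 21 UMIs. Tagln, an actin-binding protein of smooth muscle, lay at 0.65 (0.36 to 0.94) with 111 UMIs, 30 of them in 1 spot, and 0.76 (0.26 to 1.23) with 42 UMIs. At least 1.5-fold lower were 206 genes (2.83%) in PD1 KO, 408 (5.6%) in PD1 Het and 14 (0.192%) in both. These counts depended on the number of spots, with 24 higher and 69 lower in both sections for 25 spots, and 1 higher and 2 lower for 100 spots. With 100 spots Tagln lay at 0.07 in PD1 KO and Entpd1 at 0.28. Both were higher still in the spots set aside first. Entpd1 had 21.6 CPM in PD1 KO blood-rich spots against 40.2 CPM in those set aside, and 23.5 CPM in PD1 Het blood-rich spots against 25.5 CPM. Tagln had 77.2 CPM in PD1 KO blood-rich spots against 87.0 CPM in those set aside, and 47.0 CPM in PD1 Het blood-rich spots against 76.5 CPM. With the set-aside spots counted as other spots, Entpd1 lay at 0.58 in PD1 KO, under 1.5-fold, and 0.99 in PD1 Het, and Tagln at 0.59 and 0.61.

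The genes lower in both sections had few UMIs, between 9 and 36 in PD1 KO and between 4 and 22 in PD1 Het blood-rich spots for the 12 named. The intervals lay below 0 in both sections for 3 of them. These genes were picked for low ratios in the same counts, so their intervals are a description only. Fuca1, a lysosomal fucosidase, had the most UMIs and lay at -0.76 (-1.29 to -0.28) in PD1 KO and -0.71 (-1.40 to -0.09) in PD1 Het. Vkorc1l1, a vitamin K reductase, lay at -1.32 (-2.24 to -0.53) and -1.34 (-2.67 to -0.28), and Phka2, a phosphorylase kinase subunit, at -0.73 (-1.44 to -0.10) and -1.06 (-2.29 to -0.05). Cxcr4, a chemokine receptor, lay at -1.46 (-2.48 to -0.61) in PD1 KO and -0.76 (-2.23 to 0.40) in PD1 Het. Hfe, which regulates iron uptake, lay at -0.63 (-1.42 to 0.07) and -0.75 (-2.09 to 0.33). Tead3, Mtss2, Plekhm1, Zfp322a, Fosl2, Ublcp1 and Mthfd1 had log2 ratios between -1.31 and -0.59 in both sections.

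Genes of the tissue around the blood differed between the sections. Macrophage genes lay lower in blood-rich than in other spots of PD1 KO, at -0.69 (-0.83 to -0.56) for the summed list, and higher in PD1 Het, at 0.35 (0.20 to 0.50). C1qc, a complement chain made by macrophages, had 32.0 CPM in PD1 KO blood-rich spots against 51 CPM in the other spots, and 66.0 CPM in PD1 Het blood-rich spots against 34.9 CPM. Lyz2, lysozyme, lay at -0.95 (-1.25 to -0.67) in PD1 KO and -0.17 (-0.57 to 0.21) in PD1 Het. Class II antigen presentation genes lay at -0.91 (-1.25 to -0.59) in PD1 KO and 0.52 (0.03 to 0.98) in PD1 Het, and their invariant chain Cd74 at -1.16 (-1.76 to -0.62) and 0.70 (-0.06 to 1.37).

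Connective tissue genes had sums on opposite sides of the other spots as well. The fibroblast list lay at -0.36 (-0.39 to -0.33) in PD1 KO and 0.46 (0.42 to 0.49) in PD1 Het, with Col3a1, a fibrillar collagen, at 1775 CPM in PD1 KO blood-rich spots against 2173 CPM in the other spots, and 2647 CPM in PD1 Het blood-rich spots against 1629 CPM. Scar matrix genes lay at -0.22 (-0.27 to -0.18) in PD1 KO and 0.24 (0.18 to 0.30) in PD1 Het, with Postn, periostin, at -0.42 (-0.51 to -0.32) and 0.27 (0.14 to 0.39). Without the 10 first-ranked spots the PD1 Het sums lay at 0.18 for fibroblast and 0.07 for scar matrix genes. The median PD1 Het blood-rich spot had a fibroblast share of 0.383% against 0.400% in all kept PD1 Het spots, and a scar matrix share of 0.230% against 0.238%. The difference between the sections was not tested, and depth moved with genotype. Against other spots matched on UMIs, the PD1 KO ratios were nearer 0, at -0.44 for the macrophage list, -0.12 for class II, -0.15 for fibroblasts and -0.07 for scar matrix, and with 100 spots per section class II lay at -0.018 in PD1 Het.

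Ventricular muscle genes were close to the other spots, and slightly below them in both sections. The atrial sum was higher in PD1 KO, through Nppa. Ventricular cardiomyocyte genes summed to 78385 CPM in PD1 KO blood-rich spots against 81375 CPM in the other spots, and 74778 CPM in PD1 Het blood-rich spots against 82604 CPM, at log2 ratios of -0.05 and -0.14. The median of all genes tested lay at -0.06 in PD1 KO and -0.03 in PD1 Het. Spearman's rho of ventricular share with haemoglobin share over all ranked spots was 0.15 in PD1 KO and -0.08 in PD1 Het. Atrial cardiomyocyte genes, mostly Nppa, summed to 3712 CPM in PD1 KO blood-rich spots against 2116 CPM in the other spots, at 0.81 (0.77 to 0.85), and 472 CPM in PD1 Het blood-rich spots against 419 CPM, at 0.17 (0.02 to 0.32). Nppa itself lay at 0.84 in PD1 KO, with 1610 of its 5263 UMIs in 1 spot, and at -0.81 with 25 spots per section. The median of the 5 atrial members with at least 30 UMIs lay at -0.20 in PD1 KO and 0.33 in PD1 Het. In PD1 KO 1 of these members was at least 1.5-fold higher and 1 at least 1.5-fold lower. Mitochondrial genes lay at 0.20 (0.20 to 0.21) in PD1 KO and 0.09 (0.08 to 0.09) in PD1 Het. Capillary endothelial genes lay at 0.10 (0.06 to 0.14) and 0.03 (-0.03 to 0.08), and the venous list at 0.02 (-0.21 to 0.25) and 0.57 (0.28 to 0.84). Further endocardial genes lay at 0.27 (0.10 to 0.44) in PD1 KO and 0.35 (0.10 to 0.59) in PD1 Het, after the richest endocardial spots had been set aside.

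**Figure D5:**
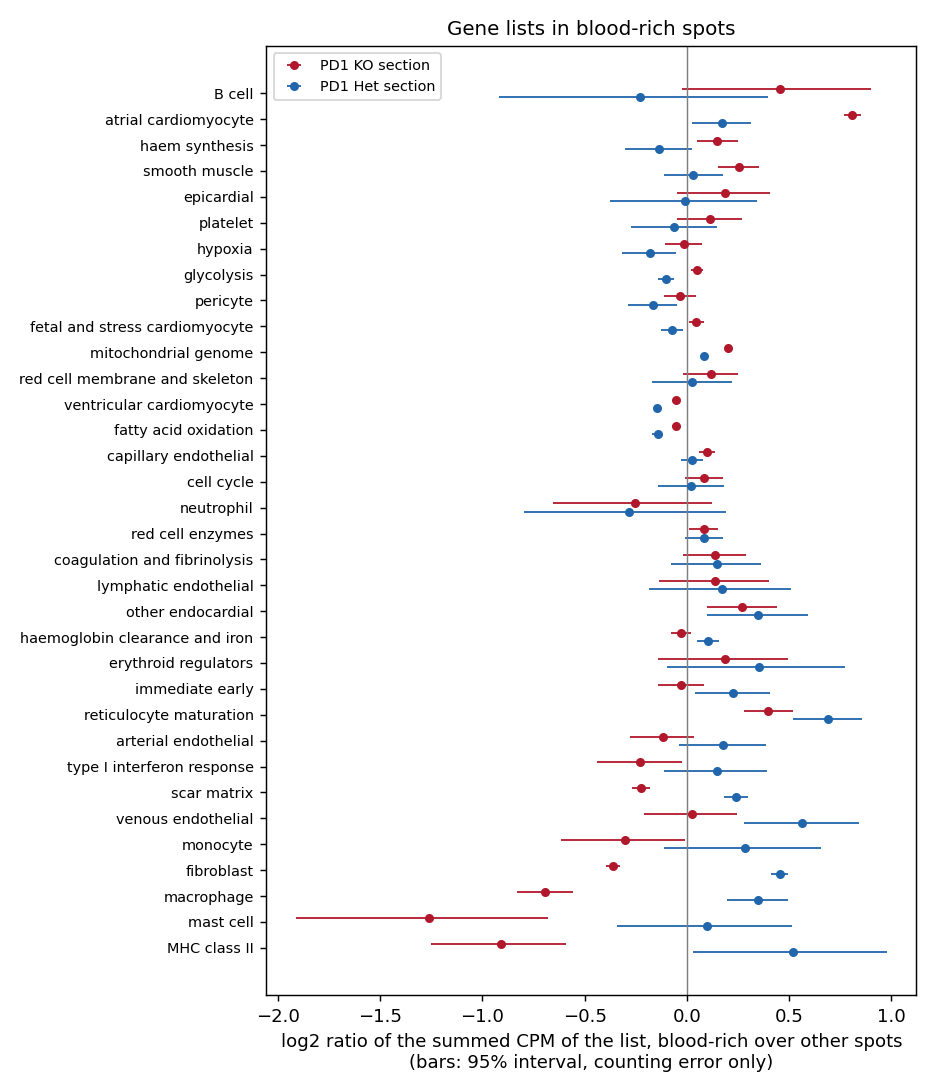
Log2 ratio of the summed CPM of each gene list in blood-rich over other spots (x axis), ordered by the PD1 KO minus PD1 Het difference. Red points are PD1 KO, blue points below them PD1 Het, and bars are 95% intervals of counting error. Reticulocyte maturation lies above 0 in both sections, while macrophage, class II, fibroblast and scar matrix lists lie below 0 in PD1 KO and above 0 in PD1 Het.

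Iron handling genes were near the level of the other spots. The list of haemoglobin clearance and iron genes lay at -0.03 (-0.07 to 0.02) in PD1 KO and 0.10 (0.05 to 0.16) in PD1 Het. Ftl1, the ferritin light chain that stores iron, lay at 0.18 (0.05 to 0.29) and 0.37 (0.24 to 0.49), whereas Fth1, the heavy chain, lay at -0.08 (-0.14 to -0.02) and 0.03 (-0.03 to 0.10). Tfrc, the transferrin receptor through which cells take up iron, lay at 0.18 (0.03 to 0.32) and -0.01 (-0.34 to 0.31). Coagulation and fibrinolysis genes lay at 0.14 (-0.02 to 0.29) and 0.15 (-0.08 to 0.36).

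Between the genotypes, levels in blood-rich spots were compared relative to the median gene, whose log2 CPM ratio of PD1 KO over PD1 Het was 0.26 in blood-rich spots and 0.32 in other spots. Of 7289 genes, 826 (11.3%) were at least 1.5-fold higher in PD1 KO and 587 (8.05%) at least 1.5-fold lower, against 275 (3.77%) and 160 (2.2%) in the other spots, where counts were larger. Of the red cell genes, Ube2l6 lay at 0.02 (-0.68 to 0.77), Mkrn1 at 0.05 (-0.47 to 0.60), Tent5c at -0.44 (-1.20 to 0.34) and Slc25a37 at 0.48 (-0.38 to 1.41). These intervals include 0 but are wide, so they do not show that the levels were alike. Bpgm was lower in PD1 KO blood-rich spots, at -0.66 (-1.20 to -0.12), while it lay at 0.11 (-0.14 to 0.36) in the other spots. The ranking genes lay between -0.35 for Hbb-bs and 0.12 for Alas2, as a description.

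The largest ratios were those of Nppa, Spry4, Topors, Tapt1, Nnt, Hdac9, Pdk4 and Parp4. Nppa, the atrial natriuretic peptide that stressed heart muscle also makes, lay at 2.93 (2.78 to 3.09) in blood-rich and 2.16 (2.11 to 2.21) in other spots. It had 5263 UMIs in PD1 KO blood-rich spots, 1610 of them in 1 spot, against 358 UMIs in PD1 Het, and with 25 spots per section the ratio was 0.94. Pdk4, a kinase that restrains glucose oxidation, lay at 2.37 (1.81 to 2.99) and 2.19 (2.04 to 2.33), and Nnt, a mitochondrial enzyme that makes NADPH, at 2.64 (0.98 to 4.98) and 1.75 (1.35 to 2.18). Spry4, Topors, Tapt1, Hdac9 and Parp4 lay between 2.27 and 2.79 in blood-rich spots, against values between 0.15 and 1.18 in the other spots, with 2 or 3 UMIs each in PD1 Het blood-rich spots.

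The lowest ratios included the mast cell gene Cma1 and genes of connective tissue. Cma1, mast cell chymase, had 3 UMIs in PD1 KO blood-rich spots against 29 UMIs in PD1 Het. They came from 2 blood-rich spots in PD1 KO and 7 in PD1 Het, with at most 7 in 1 spot. The Cma1 ratio was -4.22 (-6.58 to -2.53), while the other spots lay at -0.99 (-1.25 to -0.73). Sfrp2, a secreted Wnt modulator of fibroblasts, had 32 UMIs in PD1 KO against 96 UMIs in PD1 Het, 33 of them in 1 spot, at -2.53 (-3.16 to -1.94), while the other spots lay at 0.61 (0.42 to 0.81). With 100 spots per section the ratios were -2.96 for Cma1 and -1.66 for Sfrp2. Svep1, a matrix protein, had 11 UMIs against 29 UMIs, at -2.35 (-3.50 to -1.30), against 0.03 in the other spots. Rtn4rl1, Mcoln1, Dpep1, Paqr4 and Rbms2 lay between -2.09 and -1.86 in blood-rich spots and between -0.64 and -0.15 in the other spots. These 5 ratios rest on 9 to 32 UMIs in a section.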

How the data were processed

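The authors deposited raw UMI counts per gene and spot, 1 matrix for each of the 2 sections. Their headers name Space Ranger 1.1.0, and the submitters' processing notes name mm10 and GRCm38, while further settings are unknown. GENCODE vM21 held 32158 of the 32285 gene IDs. The 50 blood-rich spots of each section were found as the report describes, with ties kept in file order, from spots of at least 500 UMIs. Counts were summed over spots, divided by totals without the 5 ranking genes and given as CPM, with no pseudocount. Intervals are 95%: exact Poisson for sums, exact conditional for ratios and Clopper-Pearson for shares. A count of 0 allows 3 counts. Genes needed 500 UMIs over all kept spots, and list members 30.

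A total of 42 lists held 415 genes, of which 1 (Ahsp) was not matched. Named were the ranking genes, red cell genes with at least 30 UMIs in blood-rich spots, the 12 genes with the largest and smallest mean ratio among those past 1.5-fold in both sections, the 3 members of other lists with the most UMIs, and the 8 genes with the largest and smallest PD1 KO over PD1 Het ratio, without sex-linked, mitochondrial and ribosomal genes and unnamed models. The spots and lists were chosen with earlier results of these data known. Genes named for a large or small ratio were picked on the same counts that gave their intervals. Analysis used numpy 2.4.6, scipy 1.17.1, pandas 2.3.3 and edgeR 4.0.16 (TMM factors only), with the ratio code checked on simulated counts. Of the alternatives tried, 15 were planned and 2, without the first-ranked and without the 10 first-ranked spots, were chosen after seeing the data. Some members of the red cell lists enter counts and sums but are not reported here by name.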

Additional observations from a re-analysis of the deposited data

Results flagged for a closer look

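For 6 gene lists the summed level lay on opposite sides of the other spots in the 2 sections, with both intervals clear of 0 for counting error. With 1 section per genotype the difference itself was not tested. The PD1 KO minus PD1 Het difference of the log2 ratios was -1.43 for the class II antigen presentation genes, -1.04 for macrophage genes, -0.82 for fibroblast genes and -0.46 for scar matrix genes, for all of which the sum was lower than in other spots in PD1 KO and higher in PD1 Het. For fibroblast and scar matrix genes the PD1 Het sums were 0.18 and 0.07 without the 10 first-ranked spots, and the median PD1 Het blood-rich spot lay below that of all kept spots. It was 0.12 for fetal and stress cardiomyocyte genes (0.05 in PD1 KO and -0.07 in PD1 Het) and 0.15 for glycolysis genes (0.05 in PD1 KO and -0.10 in PD1 Het). The last 2 differences are small beside the others.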

How the results depend on the processing

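The ratios of Tent5c, Ube2l6, Slc4a1, Bpgm and Mkrn1 kept their sign under all 14 alternatives in both sections. In PD1 KO their lowest values were 1.66, 1.41, 1.63, 0.60 and 0.56 in that order. Of 995 list and gene values under alternatives, 45 had the opposite sign to the value reported, in 18 results. For 39 of them the reported interval includes 0, so their direction was not called, as for the PD1 Het lists of neutrophil (-0.60 to 0.25 over the alternatives), smooth muscle (-0.17 to 0.34), mast cell (-0.59 to 1.06), membrane (-0.14 to 0.16) and platelet genes (-0.20 to 0.05), and for the PD1 KO clearance and iron list (-0.07 to 0.06). The lowest neutrophil, membrane, platelet and clearance values came from taking out each gene's richest spot, which tends to lower ratios by construction. The 6 whose reported interval is clear of 0 were Nppa in PD1 KO (-0.81 with 25 spots), class II genes in PD1 Het (-0.018 with 100 spots), Ftl1 in PD1 KO (-0.023 with 100 spots), ventricular genes in PD1 KO (0.016 with median-of-ratios factors), red cell enzymes in PD1 KO (-0.014) and Cma1 in PD1 Het (-0.056), the last 2 without the 10 first-ranked spots.

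The summed haemoglobin share was 3.56% in PD1 KO and 3.51% in PD1 Het. It was 4.91% and 4.73% with 25 spots, 2.58% and 2.56% with 100 spots, 4.06% and 4.99% with no spots set aside, 3.23% and 3.04% without the first-ranked spot, and 2.30% and 2.50% without the 10 first-ranked spots, each in PD1 KO and then PD1 Het. The 5 genes higher in both sections became 24 with 25 spots, 1 with 100 spots, 11 with no spots set aside, 8 with mitochondrial genes out of the totals, 9 with median-of-ratios factors, 39 against depth-matched spots and 3 with the spots set aside counted as other spots, without each gene's richest spot or without the first-ranked spot. The 14 genes lower in both became 69 with 25 spots, 2 with 100 spots, 25 with the ranking genes in the totals, 8 with median-of-ratios factors, 43 against depth-matched spots, 89 without each gene's richest spot and 38 without the 10 first-ranked spots.

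With a minimum of 100 UMIs per gene the counts were 78 higher and 218 lower, with 2000 UMIs 0 and 0, and with no filter 354 and 213, out of 11450, 2366 and 12563 genes tested. With no filter, genes still needed a UMI in the blood-rich and in the other spots of both sections. For PD1 KO over PD1 Het, a UMI in the blood-rich spots of both sections was enough. For PD1 KO over PD1 Het, the 826 higher and 587 lower genes became 1986 and 1567 at 100 UMIs, 119 and 100 at 2000 UMIs and 2176 and 2144 with no filter, while 497 were higher with 100 spots and 1086 lower with 25 spots. List medians had 1 sign in both sections for 22 of 37 lists, and for 13 of 24 at 2000 UMIs. Apart from the removal of each gene's richest spot, the cause of these shifts was not tested. Spots were few and counts per gene small, which limits every ratio of a gene under about 30 UMIs. No paired analysis was possible because each genotype has 1 section and no test was run.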

Other observations

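With the filter lowered to 100 UMIs, Isg20, an exonuclease induced by interferon, was among the 10 highest of the 78 genes at least 1.5-fold higher in the blood-rich spots of both sections, and it was chosen after its values were seen. It had 39 UMIs (27.1 CPM) in PD1 KO blood-rich spots against 3.05 CPM in the other spots, and 13 UMIs (14.5 CPM) in PD1 Het blood-rich spots against 2.71 CPM. Its log2 ratios were 3.15 (2.54 to 3.75) and 2.43 (1.36 to 3.41). The list of type I interferon response genes, which does not hold it, lay at -0.23 (-0.44 to -0.02) in PD1 KO and 0.15 (-0.11 to 0.39) in PD1 Het. Others of these 10, besides red cell genes already described, were Foxc1, Edn1, Eif2ak2 and Agt.

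The blood-rich spots were spread over every bin of fibroblast and ventricular cardiomyocyte share, but not evenly. In both sections more of them fell in the lower bins of ventricular share and in the higher bins of mitochondrial share. When kept spots were divided into 5 bins of like size by fibroblast share, from the highest to the lowest, the 50 PD1 KO blood-rich spots fell 5, 8, 9, 12 and 16, and the 50 PD1 Het blood-rich spots 11, 8, 11, 12 and 8. By ventricular cardiomyocyte share they fell 5, 8, 11, 16 and 10 in PD1 KO and 2, 6, 11, 14 and 17 in PD1 Het. By mitochondrial share they fell 12, 15, 18, 5 and 0 in PD1 KO and 13, 15, 13, 4 and 5 in PD1 Het.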
